A study of Rattus norvegicus with 56 samples.

Results

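Choroid plexus genes were followed in cultured rat hippocampal neurons. The set held 8 genes, Ttr, Folr1, Kl, Otx2, Clic6, Aqp1, Enpp2 and Igf2, of the 16575 genes with a symbol on the array. A probe was taken as a member's when its RefSeq accession belonged to the gene, which gave 11 of the 45598 probes, and the brightest probe stood for each gene. Ttr, Folr1, Kl, Clic6 and Enpp2 had 1 probe each, and Otx2, Aqp1 and Igf2 had 2.

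The choroid plexus is the epithelium that lines folds in the brain ventricles and makes cerebrospinal fluid. It secretes carrier proteins and growth factors into that fluid, moves water, ions and vitamins across its cells, and arises next to the embryonic hippocampus, at the edge of the dorsal telencephalon. Several of its genes are also used by other cells: Enpp2 by oligodendrocytes, Igf2 by the fibroblasts of the meninges. A hippocampal dissection can therefore carry such cells into a neuronal culture, and markers of each were read beside the members.

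The arrays measured total RNA of primary hippocampal neurons from Sprague-Dawley rat embryos at E18, collected 0, 2, 8, 24 or 48 h after repetitive magnetic stimulation at 15% of the stimulator's maximum output. Dishes were given iTBS (theta bursts in an intermittent pattern), 1 Hz pulses, or a sham treatment with the coil about 20 cm away, and untreated control dishes were collected at 0 h. These made 16 groups of 2 to 4 arrays, 55 arrays in all, after 1 array of the 1 Hz group at 2 h was left out because the scanner software could not place its grid. All groups shared strain, age, tissue and culture medium, and nothing in the labels says that replicates came from separate cultures or litters, so p-values measure only the spread between these samples, which may be technical.

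Each sample label also carries a running number, and the numbers fall into 3 runs of 18 (here series A, B and C) and a run with the prefix D (series D). Series A held 11 arrays, B 12, C 17 and D 15, and the labels do not say what a series stands for. Arrays lay on 7 slides: series A on slides 1 and 2, B on 3 and 4, C on 5 to 7, and D on all of them. Differences among A, B and C therefore lie between slides, whereas D can be set against the other arrays of the same slide. The 75th percentile of signal ran from 1896 to 18416, and 66.1% to 81.8% of spots were well above background. Pan-neuronal Tubb3 lay at a mean level of 8.22 in A, 8.26 in B, 8.33 in C and 8.19 in D and did not pass the test of a series effect (adjusted p = 0.726, limma). Most of the neuronal genes read did pass it, among them Gad1 and Snap25, whose levels are given under the other observations. Tubb3 alone therefore does not show that the series held the same neurons. Throughout, a level is the log2 signal of a probe scaled within its array, so that 0 is that array's mean, and no level of 1 gene is set against that of another. In a bulk culture, fewer cells of a type and less RNA per cell cannot be told apart.

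Among the 8 members, 5 were well above background on all 55 arrays (Ttr, Otx2, Aqp1, Enpp2 and Igf2) and Folr1 on 54. Kl, the membrane co-receptor for fibroblast growth factor 23 that is typical of adult choroid plexus, was well above background on 0 of 55 arrays, with signals of 2.67 to 15.7. Clic6, an intracellular chloride channel protein, was so on 1 of 55 arrays, in series A, with signals of 2.60 to 16.5. Neither was tested. Of the partners of klotho, 4 of 5 tested genes passed the test of a series effect, as did 75.4% of all probes tested. The receptor Fgfr1 was among those that passed, with mean levels of 5.09 in A, 4.85 in B, 3.89 in C and 4.68 in D. The set thus held genes that were bright on every array beside a pair at background, and the tight junction gene Cldn2 and the membrane gene Tmem72, further markers of this epithelium, were also well above background on 0 of 55 arrays.

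All 6 members tested differed between the 4 series after adjustment for treatment and time (adjusted p under 0.05, limma), where 75.4% of all 35694 probes tested did so. The share over the whole array was thus high too. The median distance between a member's highest and lowest series was 2.61, against 0.62 over all probes tested. The members did not follow 1 order of series: Ttr, Folr1, Otx2, Enpp2, Igf2 and Aqp1 are described in turn below, by role.

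**Figure D1:**
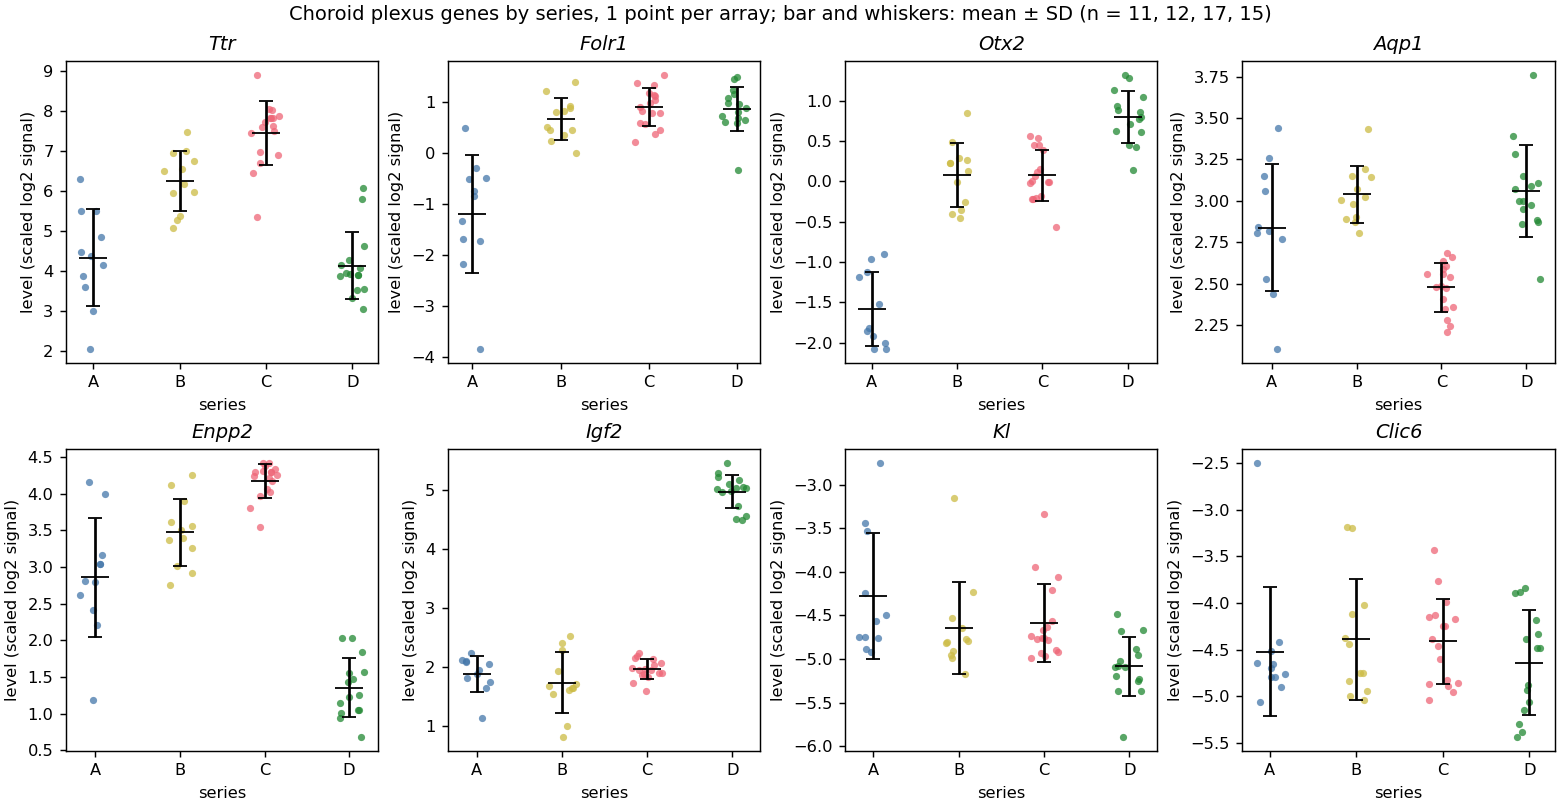
Level of each of the 8 members (scaled log2 signal, 1 point per array) in series A to D, with the mean of each series and its SD. Igf2 stands apart in D, Enpp2 is lowest in D, Otx2 and Folr1 are lowest in A, Ttr is highest in C, and Kl and Clic6 stay at background in all 4 series.

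Ttr encodes transthyretin, the carrier of thyroid hormone and retinol that this epithelium secretes in large amounts. In series A the lowest, median and highest levels were 2.06, 4.38 and 6.31 (n = 11). In B they were 5.07, 6.34 and 7.48 (n = 12), and in C 5.35, 7.62 and 8.90 (n = 17). In D they were 3.05, 3.93 and 6.08 (n = 15). On the unscaled scale the signal spanned 378 to 48540. The order was C, B, A and D, with wide overlap between neighbours.

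The mean level of Ttr was 7.45 ± 0.79 in C, 6.25 ± 0.75 in B, 4.34 ± 1.21 in A and 4.14 ± 0.83 in D (SD). Ttr was higher in C than in A by 3.14 ± 0.37 (SE, adjusted p = 1.26e-08) and higher in B than in A by 1.99 ± 0.42 (adjusted p = 0.000407). C exceeded B by 1.15 ± 0.36 (adjusted p = 0.0131). With the slide as a block, a fixed term of the model, these 3 differences were 1.44, 1.33 and 0.11 and no longer passed (adjusted p = 0.228, 0.578 and 0.941). A, B and C share no slide, so there their differences rest on the few D arrays of each slide. D lay below C by 3.31 ± 0.33 (adjusted p = 9.48e-11), below B by 2.16 ± 0.37 (adjusted p = 4.74e-06), and within error of A (difference −0.17 ± 0.39, adjusted p = 0.763). Within slides, the mean of D was below that of the numbered arrays on 7 of 7 slides, by 0.27 to 3.88.

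The promoters of Ttr and Igf2, from 250 bases before to 50 bases after the start of transcription, are shown because these genes took opposite positions in series D, Igf2 with both of its annotated starts (RefSeq, build GRCr8, each written 5′ to 3′ along its gene). Ttr lies on the plus strand at chr18:12218508-12218807 and Igf2 on the minus strand at chr1:207253931-207254230 and chr1:207250426-207250725. Capitals mark the CCAAT box, the TATAAA box, the GC box written GGGCGG, and TAATCC, a homeodomain core bound by OTX proteins, on either strand.
Ttr: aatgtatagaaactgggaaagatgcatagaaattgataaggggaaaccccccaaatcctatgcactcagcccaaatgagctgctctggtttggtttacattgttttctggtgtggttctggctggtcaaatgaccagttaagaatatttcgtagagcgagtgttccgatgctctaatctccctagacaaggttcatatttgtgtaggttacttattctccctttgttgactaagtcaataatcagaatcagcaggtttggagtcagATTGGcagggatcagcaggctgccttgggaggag
Igf2 first start: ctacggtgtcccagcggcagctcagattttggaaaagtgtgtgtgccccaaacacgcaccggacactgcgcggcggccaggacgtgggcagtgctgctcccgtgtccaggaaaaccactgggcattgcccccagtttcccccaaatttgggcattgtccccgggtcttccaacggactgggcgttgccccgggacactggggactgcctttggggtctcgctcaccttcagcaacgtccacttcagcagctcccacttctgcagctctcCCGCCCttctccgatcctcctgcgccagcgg
Igf2 second start: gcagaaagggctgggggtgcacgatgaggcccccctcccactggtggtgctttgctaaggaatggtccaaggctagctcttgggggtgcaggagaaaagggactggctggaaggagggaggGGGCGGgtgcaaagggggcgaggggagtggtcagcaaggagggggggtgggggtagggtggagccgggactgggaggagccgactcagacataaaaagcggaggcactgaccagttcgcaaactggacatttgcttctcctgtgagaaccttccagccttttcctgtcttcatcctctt
The Ttr window held 1 CCAAT, on the minus strand, and had a GC content of 43.7%. The Igf2 windows held 1 GGGCGG each and had a GC content of 63.3% and 60.7%. TAATCC, on either strand, was in none of the 3. Of all 33469 promoter windows of this length, 37.5% held CCAAT, 14.2% held TATAAA, 33.1% held GGGCGG and 7.17% held TAATCC. A match is a string of letters in this window and no measurement of binding. Promoters were found for 4 of the 8 members (Ttr, Kl, Aqp1 and Igf2).

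Of the other genes that handle thyroid hormone and retinol, 7 of 9 passed the test of a series effect (75.4% of all probes tested did). Stra6, the cell-surface receptor for retinol-binding protein, lay at mean levels of −0.26 in A, −0.26 in B, −0.15 in C and 1.07 in D. Rbp4, the retinol-binding protein that travels with transthyretin in plasma, lay at 2.74, 2.25, 2.29 and 3.41. Both were highest in D, where the mean of Ttr was lowest, though within error of A (difference −0.17, adjusted p = 0.763, limma). Stra6 and Rbp4 are examples, and the rest of the 9 genes are not described.

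Enpp2 encodes autotaxin, the secreted enzyme that makes lysophosphatidic acid. Its lowest, median and highest levels were 1.18, 2.81 and 4.16 in A, 2.76, 3.45 and 4.26 in B, 3.55, 4.25 and 4.42 in C, and 0.68, 1.25 and 2.03 in D. No array of D reached the lowest array of B or C, and D overlapped A.

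Enpp2 was lower in D than in C by 2.82 ± 0.18 (SE, adjusted p = 5.22e-16), than in B by 2.11 ± 0.20 (adjusted p = 1.86e-11) and than in A by 1.49 ± 0.22 (adjusted p = 4.23e-07). On 7 of 7 slides the mean of D was below that of the numbered arrays, by 1.35 to 3.17. C exceeded A by 1.33 ± 0.20 (adjusted p = 1.83e-06) and B by 0.71 ± 0.20 (adjusted p = 0.00541), and both passed with the slide as a block. B exceeded A by 0.62 ± 0.23 (adjusted p = 0.0366), which did not pass with the slide as a block (0.25, adjusted p = 0.851) nor when the array of 1 Hz at 8 h in series A was left out (0.44, adjusted p = 0.120).

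Markers of oligodendrocytes, the myelin-forming cells that also use Enpp2, moved with it. All 7 of them passed the test of a series effect (75.4% of all probes tested did). In D against C 0 rose and 6 fell (28.7% of all probes tested rose and 23.7% fell). In C against A 6 rose and 0 fell (20.9% and 22%). Mbp, the myelin basic protein, lay at mean levels of 3.93 in A, 6.52 in B, 9.03 in C and 2.57 in D. Sox10, the lineage transcription factor, lay at 4.05, 5.08, 6.43 and 1.76. The part of these cells in the level of Enpp2 was not tested. The receptors and phosphatases of lysophosphatidic acid passed in 8 of 8 cases (75.4% of all probes tested did). Lpar1, a receptor of that lipid, lay at −2.05 in A, −0.34 in B, 1.93 in C and 0.36 in D.

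Igf2 encodes insulin-like growth factor 2, an imprinted fetal growth factor that choroid plexus and meninges secrete. The lowest, median and highest levels were 1.13, 1.95 and 2.24 in A, 0.81, 1.66 and 2.52 in B, and 1.59, 1.94 and 2.24 in C. In D they were 4.50, 5.04 and 5.47. The signal of every D array lay between 2121 and 7292, and no array of A, B or C passed 682. D did not overlap the other 3 series, which overlapped each other.

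Igf2 was higher in D than in A by 3.06 ± 0.14 (SE, adjusted p = 2.47e-20), than in B by 3.23 ± 0.13 (adjusted p = 4.02e-22) and than in C by 3.02 ± 0.12 (adjusted p = 1.52e-22). Within slides the difference was 2.70 to 3.41, with D higher on 7 of 7. A, B and C differed by −0.16 to 0.21 and none of these differences passed. The second probe was well above background on 18 of 55 arrays, 15 of them in D and 1 each in A, B and C. It thus entered the test through D. Its differences of D from the other series were 2.88 to 2.89, a size bounded by background in A, B and C, and are no separate evidence.

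The insulin-like growth factor system passed the test of a series effect in 12 of 12 genes tested (75.4% of all probes tested did). H19, the imprinted non-coding RNA that neighbours Igf2, lay at mean levels of −1.02 in A, −1.06 in B, −1.62 in C and 5.66 in D, and was higher in D than in C by 7.22 ± 0.27 (SE, adjusted p = 6.42e-23). The binding protein gene Igfbp6 lay at −1.81, −1.89, −1.97 and 0.18, and Igfbp4 at 4.68, 4.52, 4.27 and 6.30. Igf2bp2, an RNA-binding protein of Igf2 transcripts, was lowest in D (4.29, 4.61, 5.11 and 3.33). Against C, 4 of the 12 rose in D and 3 fell (28.7% and 23.7% of all probes tested).

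Leptomeningeal fibroblast markers moved with Igf2 in D, though not all of them. Of 11 tested, 10 passed the test of a series effect (75.4% of all probes tested did). In D against C 6 rose and 2 fell (28.7% and 23.7% of all probes tested). Col3a1, a fibrillar collagen, lay at mean levels of −0.24 in A, −1.09 in B, 2.14 in C and 6.01 in D, and Col1a2 at 1.79, 2.16, 4.54 and 7.22. Lum, a matrix proteoglycan, lay at 0.47, −0.62, −0.91 and 2.00. The collagens were thus also higher in C than in A, where Igf2 was not: Col1a2 by 2.64 ± 0.18 (SE, adjusted p = 1.35e-14) against 0.04 ± 0.13 for Igf2 (adjusted p = 0.823). Aldh1a2, a defining meningeal enzyme, was well above background on 0 of 55 arrays. The part of fibroblasts in the level of Igf2 was not tested.

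**Figure D2:**
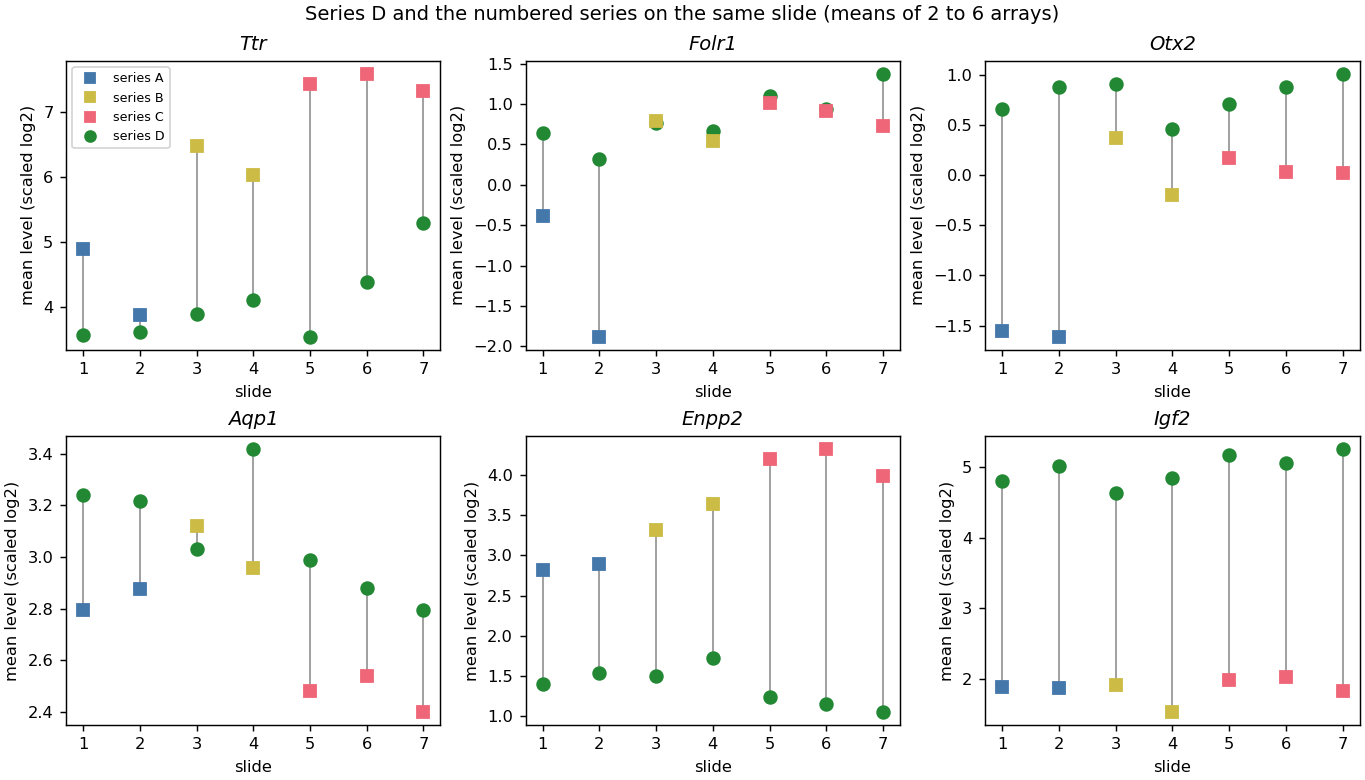
Mean level (scaled log2 signal) of the series D arrays (circles) and of the series A, B or C arrays (squares) on each of the 7 slides, joined by a line, for the 6 members tested. D is above the other arrays on 7 of 7 slides for Igf2 and Otx2 and below them on 7 of 7 for Ttr and Enpp2, and for Folr1 the circles and squares lie close together on slides 3 to 6.

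Folr1 encodes folate receptor alpha, which carries folate into cerebrospinal fluid. The lowest, median and highest levels were −3.85, −0.84 and 0.48 in A, −0.01, 0.66 and 1.40 in B, 0.22, 0.90 and 1.54 in C, and −0.33, 0.88 and 1.49 in D. Series A was low and the other 3 overlapped. The array of 1 Hz at 8 h in A, at −3.85, was the only one of the 55 on which Folr1 was not well above background.

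Folr1 was higher than in A by 1.91 ± 0.28 in B (SE, adjusted p = 2.76e-06), by 2.09 ± 0.25 in C (adjusted p = 1.73e-08) and by 2.11 ± 0.27 in D (adjusted p = 2.39e-08). With the slide as a block the differences of B and C from A did not pass (1.31 and 0.83, adjusted p = 0.309 and 0.250), while that of D did (1.33, adjusted p = 0.00946). B, C and D differed by 0.02 to 0.20 and did not pass. Within slides D lay 1.02 and 2.20 above A, and −0.03 to 0.63 from B or C. Of the folate genes, 4 of 5 passed the test of a series effect (75.4% of all probes tested did). The folate carrier Slc19a1 was highest in A (3.57, 3.09, 2.96 and 3.02).

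Aqp1 encodes aquaporin 1, the water channel of the apical choroid plexus membrane. It moved least of the 6 members tested. The lowest, median and highest levels were 2.11, 2.82 and 3.44 in A, 2.80, 3.01 and 3.43 in B, 2.21, 2.48 and 2.69 in C, and 2.53, 3.0 and 3.76 in D. C lay below every array of B and overlapped A and D.

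Aqp1 was lower in C than in A by 0.41 ± 0.09 (SE, adjusted p = 0.000199), than in B by 0.53 ± 0.08 (adjusted p = 6.03e-06) and than in D by 0.57 ± 0.08 (adjusted p = 9.94e-08). The first 2 did not pass with the slide as a block (−0.34 and −0.46, adjusted p = 0.231 and 0.0805). The second, dimmer probe of Aqp1 followed another course: it was higher in D than in A by 1.69, in B by 1.75 and in C by 1.36, all past the threshold. Across the 55 arrays the probes correlated at r = 0.202, and at −0.016 within series, so their levels are not taken as 1 measurement. Of the other aquaporins, 5 of 7 tested passed the test of a series effect (75.4% of all probes tested did). Aqp4, the astrocyte water channel, was lowest in A (7.53, 8.54, 8.56 and 8.56).

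Otx2 encodes the homeodomain factor that specifies and maintains choroid plexus epithelium. The lowest, median and highest levels were −2.08, −1.81 and −0.90 in A, −0.46, 0.18 and 0.85 in B, −0.57, 0.01 and 0.56 in C, and 0.14, 0.79 and 1.32 in D. Series A lay below every array of the other 3. D overlapped B and C.

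Otx2 was higher than in A by 1.74 ± 0.17 in B (SE, adjusted p = 4.37e-10), by 1.68 ± 0.15 in C (adjusted p = 8.64e-12) and by 2.41 ± 0.16 in D (adjusted p = 6.37e-16), and these passed with the slide as a block. It was higher in D than in B by 0.67 ± 0.14 (adjusted p = 0.000167) and than in C by 0.73 ± 0.13 (adjusted p = 1.36e-05), and on 7 of 7 slides D was above the numbered arrays, by 0.54 to 2.49. C minus B was −0.06 ± 0.14 (adjusted p = 0.785). The second probe of Otx2 correlated with the first at r = 0.921, and at 0.744 within series, but its difference between D and C was 0.10 and did not pass.

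Counted over the contrasts between pairs of series, 4 of the 6 members passed in B against A (30.4% of all probes tested), 5 in C against A (42.9%), 4 in D against A (41.7%), 3 in C against B (32.7%), 4 in D against B (53%) and 5 in D against C (52.5%). With the slide as a block the counts of D against A, B and C were 4, 4 and 5, whereas those of B against A, C against A and C against B were 1, 2 and 1.

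Of 22 other genes of choroid plexus epithelium tested (24 with a probe of 26 listed), 15 passed the test of a series effect. Over the whole array 75.4% of probes tested did so. In D against C 6 of the 22 rose and 5 fell, where 28.7% of all probes tested rose and 23.7% fell. None of these counts exceeds the share over the array. Sostdc1, a secreted bone morphogenetic protein antagonist, lay at mean levels of −2.34 in A, −0.31 in B, 0.36 in C and −1.51 in D, the order of Ttr except that D lay above A. Kcnj13, a potassium channel of the apical membrane, lay at −3.44, −1.27, −0.87 and −2.01, and was well above background on 2 of the 11 arrays of A. Lmx1a, a transcription factor of the embryonic roof plate, lay at −1.90, −0.80, −0.39 and −0.32. Htr2c, the serotonin receptor, was highest in D (2.87, 2.37, 2.84 and 4.21). These genes of 1 epithelium, like the members, did not keep 1 order of series.

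**Figure D3:**
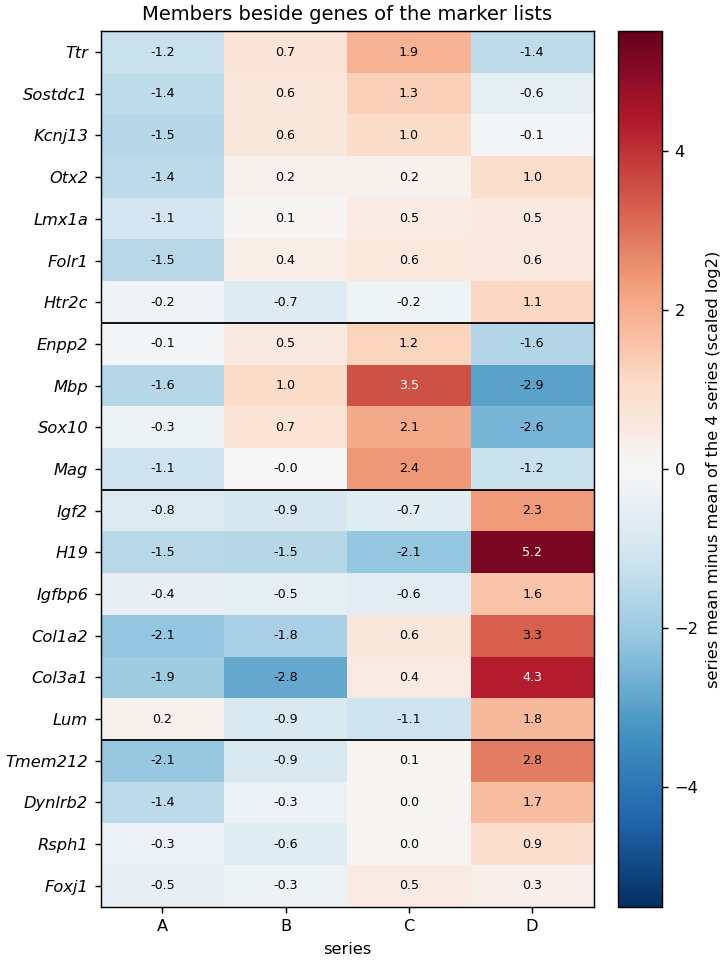
Mean level of each series minus the mean of the 4 series (scaled log2, printed in each cell and shown as colour) for 5 members and for genes of the marker lists, with lines between the choroid plexus, oligodendrocyte, Igf2 and mesenchymal, and motile cilia blocks. Mbp and Sox10, like Enpp2, are highest in C and lowest in D, and Col3a1 and H19, like Igf2, are highest in D.

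Ciliated ependyma, a neighbour of the choroid plexus in the ventricle wall, passed the test of a series effect in 7 of 7 genes (75.4% of all probes tested did). In D against C 4 were higher and 0 lower (28.7% and 23.7% of all probes tested). Dynlrb2, a dynein light chain of motile cilia, lay at −1.72 in A, −0.63 in B, −0.25 in C and 1.40 in D, the order of Otx2 in its lowest and highest series. The part of ependymal cells in the level of Otx2 was not tested.

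The members were next set against Ttr from array to array with each series centred on its own mean, over 55 arrays. Folr1 followed Ttr with r = 0.569 and rho = 0.573 (adjusted p = 0.000455, two-sided permutation of 100000 draws within series, 7 relations). Otx2 did so with r = 0.598 and rho = 0.536 (adjusted p = 7e-05). Each series lay on several slides, and the draws exchanged arrays between them. No setting took the slide out, so a shift that both genes share between slides would count towards r and its p. With the 2 arrays farthest from the median of Ttr left out, r was 0.540 for Folr1 and 0.564 for Otx2. The sign was positive in each series: r of Ttr with Folr1 was 0.651 in A, 0.269 in B, 0.672 in C and 0.604 in D, and with Otx2 0.678, 0.378, 0.669 and 0.617. Between Folr1 and Otx2 themselves r was 0.472 in A, 0.601 in B, 0.879 in C and 0.113 in D, given as a description.

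The other members did not pass this test. Within series r was 0.275 for Igf2 (adjusted p = 0.100), −0.280 for Enpp2 (adjusted p = 0.150), 0.066 for Aqp1 (adjusted p = 0.804), 0.080 for Clic6 (adjusted p = 0.804) and −0.022 for Kl (adjusted p = 0.890), and the last 2 are background signals. Both of the first 2 calls depended on the setting: Enpp2 passed with group means also subtracted (r = −0.392, adjusted p = 0.0208) and Igf2 under quantile normalization (r = 0.339, adjusted p = 0.0295). Because the series are separate clusters, no correlation over all arrays is given as a result. Enpp2 and Igf2 were opposed within series with r = −0.481, given as a description.

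Of 13884 genes, the 1 most like Ttr over 55 arrays was Sostdc1 (r = 0.886), followed by Cpm (0.792) and Myrf (0.790). Within series Sostdc1 led again (r = 0.741) and the next gene reached 0.519. The lists for the other members were drawn up after their values were seen. Otx2 was most like Crispld2 (0.861), Ogn (0.860) and Lmx1a (0.859), and within series Sostdc1 (0.640) and Lmx1a (0.600). Enpp2 was most like Prkcq (0.984), Apod (0.970), Gltp (0.970), Lims2 (0.968) and, further down, Sox10 (0.962) and Sox8 (0.962). Igf2 was most like Srpx2 (0.964), Lhx8 (0.960), Cilp (0.958) and Fap (0.946), which were well above background on 15 or 16 of the 55 arrays. Srpx2 lay at mean levels of −4.90 in A, −4.93 in B, −4.91 in C and −0.90 in D. The rho of these genes with Igf2 was 0.483, 0.505, 0.474 and 0.638, so r mainly restates the distance of D from the other series. Within series the leading genes for Igf2 were others, Iqgap1 (0.711) and Specc1 (0.701). These values describe likeness over arrays that share series and slides, and carry no test.

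The study asked what stimulation changes, and none of the members passed in any such comparison. Over 6 members, 5 times and both protocols, 0 of 60 differences from sham passed (limma), none had an unadjusted p under 0.05, and 0%, 0.00280% or 0.00560% of all probes tested passed at a given time and protocol. The smallest unadjusted p was 0.0744, for Folr1 at 8 h after 1 Hz, and its adjusted p was 1. There Folr1 lay at −3.85, 0.88, 0.22 and 0.73 in the 1 Hz arrays of series A to D, and at 0.83, 1.54 and 0.61 in the sham arrays of B, C and D. The difference was −1.49 ± 0.82 (SE) and was −0.38 without the array of A. In simulated arrays without series differences, the model for iTBS at 8 h recovered 4% of changes of 0.5, 34% of 1 and 82% of 2. The real arrays held the spread between series as well. In them the SE of iTBS at 8 h against sham ran from 0.285 for Aqp1 to 1.52 for Ttr. The simulation left that spread out, so its shares do not carry over to the members. The absence of a passing difference therefore does not show that stimulation left these genes unchanged.

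The ranges of the change from sham at any 1 time and protocol were −1.56 to 0.73 for Ttr, −1.49 to 0.21 for Folr1, −0.81 to 0.62 for Otx2, −0.29 to 0.25 for Aqp1, −0.61 to 0.71 for Enpp2 and −0.76 to 0.76 for Igf2. With the series as a block the ranges were −1.15 to 0.59, −0.98 to 0.21, −0.51 to 0.41, −0.30 to 0.25, −0.57 to 0.54 and −0.46 to 0.26 in the same order. Igf2 at 2 h after 1 Hz, the highest of its values, went from 0.76 to −0.057. For each of the 6 the size of these changes was smaller than the distance between its lowest and highest series. Averaged over times, changes ran from −0.42 (Folr1, 1 Hz) to 0.06 (Enpp2, iTBS) and 0 of 12 passed. Neither did iTBS against 1 Hz or the change of the effect between times. Untreated control differed from sham at 0 h by 0.72 for Ttr, 0.57 for Enpp2, −0.56 for Igf2 and −0.53 for Otx2, with 0 of 6 past the threshold. Control arrays came from series A and C only, and with the series as a block these differences were 0.39, 0.023, 0.16 and 0.090, so that the direction turned for Igf2 and Otx2.

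Because groups held different series, stimulated and sham arrays of the same series and time were also paired, with 13 pairs for 1 Hz and 17 for iTBS. The 1 Hz array was above its sham array in 7 of 13 pairs for Ttr, 2 for Folr1, 5 for Otx2, 4 for Aqp1, 6 for Enpp2 and 3 for Igf2. For iTBS it was so in 9 of 17 pairs for Ttr, 5 for Folr1, 9 for Otx2, 10 for Aqp1, 9 for Enpp2 and 9 for Igf2. The paired difference after 1 Hz had a mean of −0.21 ± 0.36 for Folr1 and −0.22 ± 0.40 for Igf2 (SD, n = 13), and these pairs were not tested as such. With the series as a block, the change averaged over times after 1 Hz was −0.43 ± 0.22 for Folr1 (SE, limma, unadjusted p = 0.0617, adjusted p = 1.0) and −0.085 ± 0.12 for Igf2 (unadjusted p = 0.477). With the series as a block, Folr1 at 8 h after 1 Hz differed from sham by −0.98 (limma), with an unadjusted p of 0.048 and an adjusted p of 0.9999.

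**Figure D4:**
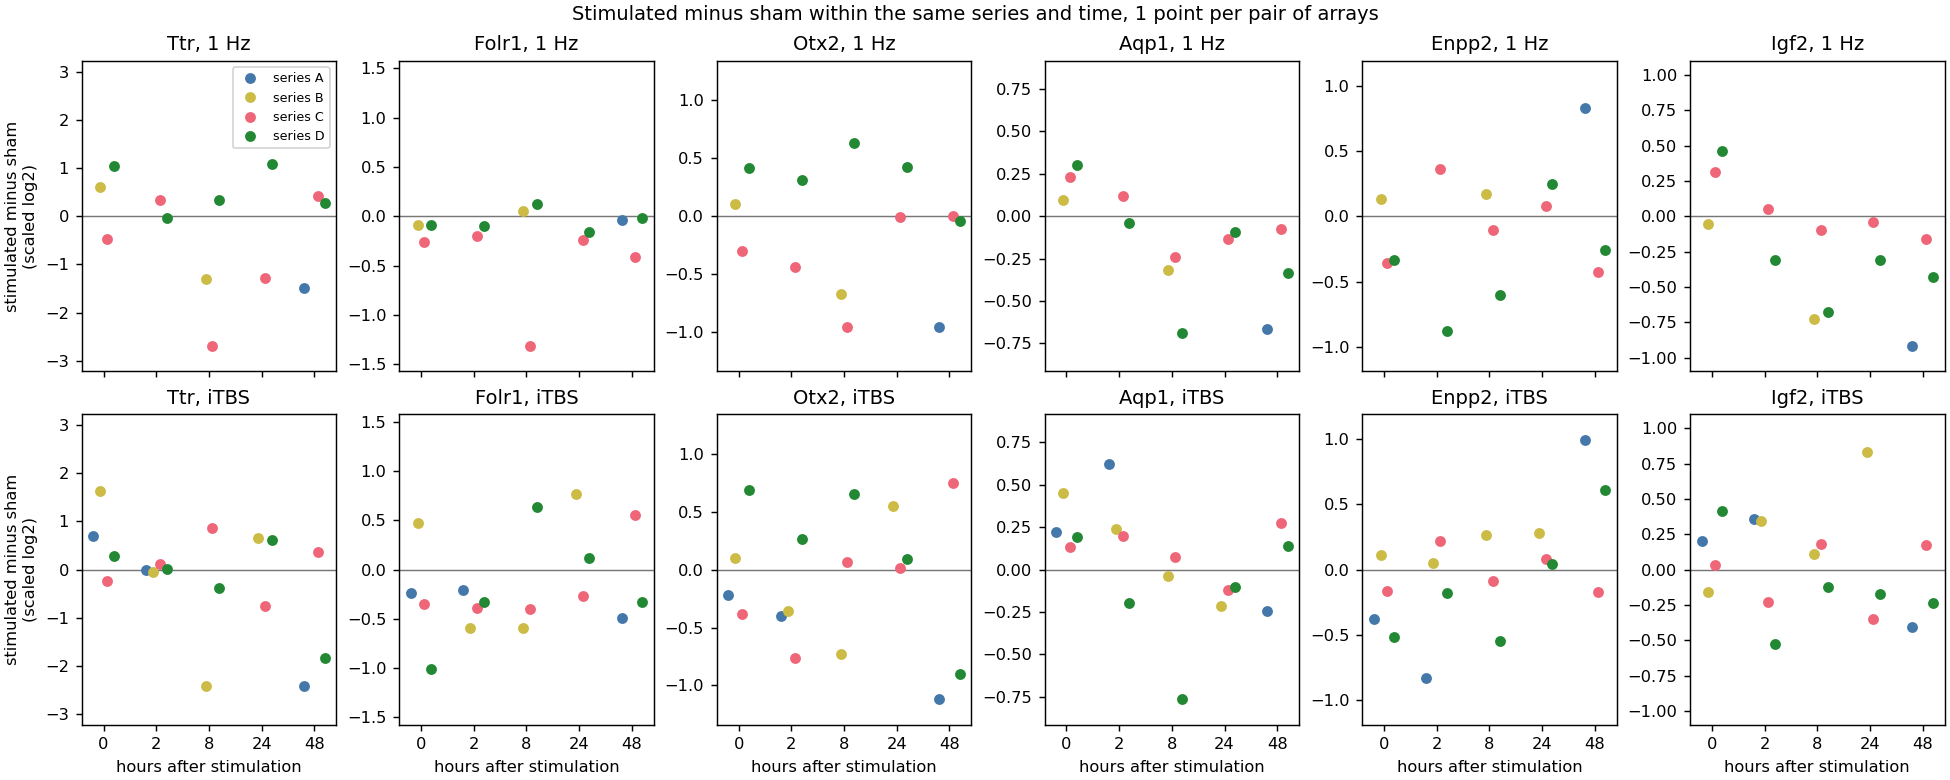
Stimulated minus sham level (scaled log2) for pairs of arrays of the same series and time against hours after stimulation, 1 point per pair coloured by series, with 13 pairs for 1 Hz in the upper panels and 17 for iTBS in the lower. In every panel points lie on both sides of 0.

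Over the times after stimulation, 0 of 6 members passed the test of a time effect, against 8.16% of all probes tested. With the series as a block 1 did, Aqp1 (adjusted p = 0.0124, 27% of all probes), which fell at 48 h against 0 h by 0.35 ± 0.09 (SE, adjusted p = 0.00451). Aqp1 levels at 0 h ran from 2.25 to 3.43 with a median of 2.84 (n = 15), and at 48 h from 2.11 to 3.0 with a median of 2.56 (n = 11). The 0 h values include the untreated control arrays, which the contrast over time left out. The values overlap. The second probes differed: that of Aqp1 did not pass (adjusted p = 0.631, 48 h minus 0 h 0.049), and that of Igf2, well above background on 18 of 55 arrays, did (adjusted p = 0.0158), with 48 h below 0 h by 0.75 ± 0.21 (SE, adjusted p = 0.00598). Outside D this Igf2 probe was well above background on only 1 array each of A, B and C.

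Series A and D changed in different ways between 0 and 48 h. This contrast was chosen after the values were seen, and within a series the 0 h and 48 h arrays lie on different slides, so that time and slide cannot be told apart. Ttr lay at 3.61, 4.16, 4.86 and 6.31 at 0 h in A, and at 2.06, 3.0 and 4.48 at 48 h. The 3.61 and 6.31 came from untreated control dishes, and neither D nor any 48 h group held such dishes. In D Ttr lay at 3.05, 3.33 and 4.08 at 0 h and at 3.96, 5.80 and 6.08 at 48 h. The means fell in A from 4.73 to 3.18 and rose in D from 3.49 to 5.28, with overlap in both.

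Folr1 gave the clearest contrast, with no overlap in either series. In A it lay at −0.84, −0.75, −0.52 and 0.48 at 0 h, the −0.84 and 0.48 from untreated control dishes. At 48 h it lay at −2.18, −1.73 and −1.69 in A. In D it lay at −0.33, 0.59 and 0.68 at 0 h and at 1.15, 1.46 and 1.49 at 48 h. Enpp2 took the opposite course: in A it lay at 2.41, 2.79, 2.81 and 3.04 at 0 h, the 2.81 and 3.04 from untreated control dishes. At 48 h it lay at 3.17, 4.00 and 4.16 in A. In D it lay at 1.05, 1.23 and 1.57 and then at 0.68, 0.94 and 1.55. Series B and C were not part of this contrast. From 0 to 48 h the means of B and C changed by 0.73 and 0.31 for Ttr, −0.32 and −0.14 for Folr1, and 0.84 and −0.46 for Enpp2.

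The change of D minus that of A was 3.59 ± 1.00 for Ttr (SE, adjusted p = 0.0231), 2.57 ± 0.49 for Folr1 (adjusted p = 0.00111) and −1.32 ± 0.33 for Enpp2 (adjusted p = 0.0112), so 3 of 6 members passed, against 9.36% of all probes tested. Otx2 (adjusted p = 0.878), Aqp1 (adjusted p = 0.943) and Igf2 (0.77, adjusted p = 0.107) did not. With the slide as a block 0 of 6 passed, with an adjusted p of 0.927 for Ttr, Folr1 and Enpp2. Ttr did not pass without any 1 of the arrays of 1 Hz at 48 h in A (3.36, adjusted p = 0.0643) or D (3.14, adjusted p = 0.0867), of iTBS at 0 h in D (3.30, adjusted p = 0.0827) or of iTBS at 48 h in A (3.28, adjusted p = 0.0550), and Enpp2 did not without the array of 1 Hz at 48 h in D (−1.10, adjusted p = 0.0578).

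**Figure D5:**
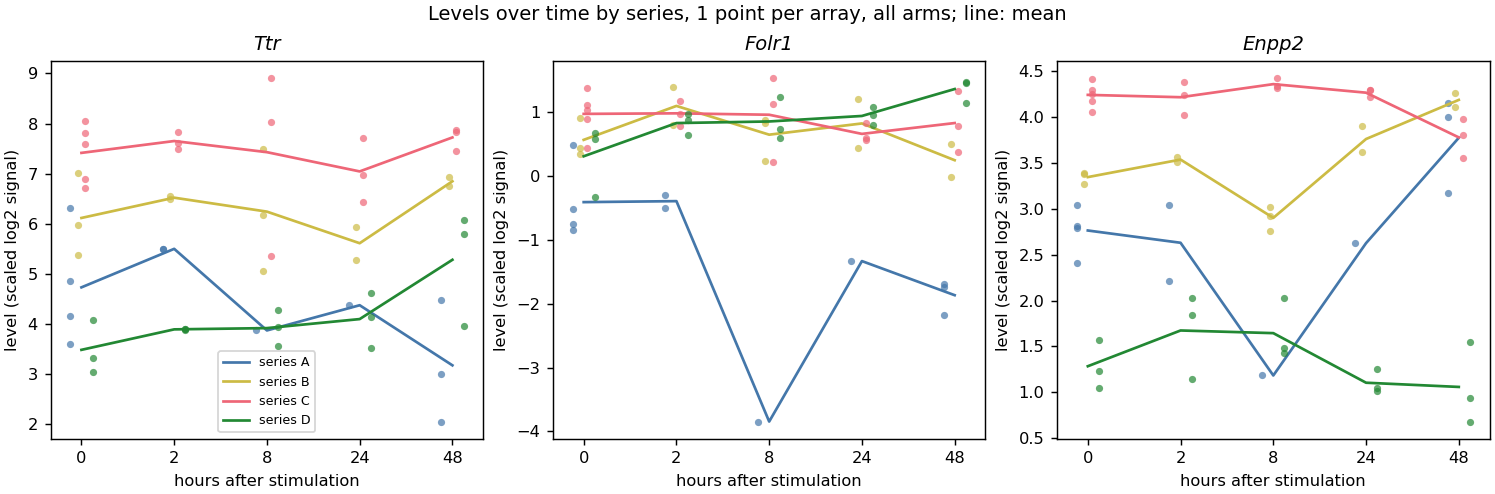
Level of Ttr, Folr1 and Enpp2 (scaled log2 signal, 1 point per array, all treatments) against hours after stimulation, with a line through the mean of each series at each time. Folr1 is lower at 48 h than at 0 h in A and higher in D, and the A points at 8 h and at 24 h are 1 array each.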

How the data were processed

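The authors hybridised Cy3-labelled total RNA, 200 ng per sample, to 1-colour Agilent arrays (design build rn4) and deposited the Feature Extraction (version 12.0.3.1) intensity of each spot, with background subtracted. Their normalized table, deposited as a score, is the z-score of log10 intensity and served as an alternative. Here the processed signals were averaged over the spots of a probe on the log2 scale, without outlier spots, z-scored within each array and multiplied by the median SD of arrays (4.06). The test took in the 35694 probes that 3 or more arrays showed well above background, with limma (version 3.58.1, R 4.3.3) on group means with 39 residual degrees of freedom, and with series added for contrasts between series. A Benjamini-Hochberg adjusted p under 0.05 over all probes tested passed. Gene names came from RefSeq accessions, and 1 gene is not reported here. Members, gene lists and tests were chosen with earlier results of these data known. The genes named are the members, the leading genes by likeness and examples from each list. The alternatives were 75th percentile scaling, quantile normalization, normexp, no filter on dim probes, the second probe, slide, series or replicate as a block, no control arrays, and leaving out each array. Normexp used median signals, as no mean signal column was used here. Models were tested on simulated data. With few arrays per group, their number limits the precision.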

Additional observations from a re-analysis of the deposited data

Results flagged for a closer look

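In groups of 4 arrays, 10 of 48 tests of a member in a group showed 1 array far from the other 3. Among like arrays the rule flags about 1 in 20, but these arrays were not alike. Each flagged group held 1 array of each series, so the flags restate the series differences above and are no further evidence. In each case the far array came from series A (4) or D (6). For Igf2 the D array was high at 5.04 in 1 Hz at 48 h (others 1.13 to 1.73), 4.56 in sham at 0 h (1.70 to 1.87), 5.04 in sham at 2 h (1.74 to 2.19), 4.97 in iTBS at 0 h (1.54 to 2.08) and 4.52 in iTBS at 2 h (1.96 to 2.28). Enpp2 was low on the D array of iTBS at 48 h, at 1.55 (others 3.81 to 4.16). Folr1 was low on the A array of 1 Hz at 8 h, at −3.85 (0.22 to 0.88), and of iTBS at 2 h, at −0.49 (0.65 to 0.80). Otx2 was low on the A array of sham at 0 h, at −1.85 (0.13 to 0.45), and at 2 h, at −1.12 (0.56 to 0.85).

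The change from 0 to 48 h differed between series D and A by 3.59 for Ttr, 2.57 for Folr1 and −1.32 for Enpp2, as tested by limma, with time and slide not separable within a series.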

How the results depend on the processing

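The series effect (6 of 6 members) and the absence of a passing stimulation difference (0 of 60) held under each alternative run. With the slide as a block, passing members went from 4 to 1 in B against A, from 5 to 2 in C against A, from 3 to 1 in C against B and from 3 to 0 for the change from 0 to 48 h of D against A. Leaving out single arrays gave 1 to 4 members for the last, the fourth being Igf2 without the array of sham at 48 h in A (0.93, adjusted p = 0.0444). The series as a block gave 1 for time. Enpp2 in B against A did not pass without any 1 of 11 arrays (adjusted p = 0.0507 to 0.120). The replicate numbers of the titles did not pair arrays (mean r = 0.160 for equal and −0.0558 for other numbers, lowest −0.462). A replicate block left 6 members for series, 0 for stimulation and 2 for the change of D against A, where Enpp2 (−1.03, adjusted p = 0.117) dropped out.

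Signs turned only in differences that did not pass, except for the second probes. Folr1 in C against B was −0.033 under normexp, −0.16 with the replicate block and −0.48 with the slide. Folr1 in D against B was −0.10 and −0.12 under the first pair. Folr1 in D against C was −0.069 under normexp, −0.079 under quantile normalization, −0.062 without control arrays and −0.063 to 0.13 without single arrays. Otx2 in C against B was 0.12 with the replicate block and 0.44 by its second probe. The second probe of Aqp1 gave 0.33 in C against A and 0.40 in C against B. The correlation with Ttr turned for Kl (0.059, 75th percentile) and Aqp1 (−0.030, without 2 arrays). Normexp moved the median of all probes by up to −0.27 (D against B), and Otx2 in that contrast was 0.17 there (adjusted p = 0.249). Over the whole array, time passed in 2911 probes, and in 1743 under normexp, 5127 with the replicate, 9634 with the series and 1565 with the slide as a block. The change of D against A passed in 3340, and in 1992 with the replicate and 2 with the slide as a block. Causes were not tested. Kl and Clic6 are bounded by background.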

Other observations

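Microglial genes also took different courses between the series. C1qa, a complement component of microglia, was well above background on 10 of 11 arrays of A and 15 of 15 of D, and on 0 arrays of B and C, with mean levels of −0.13 in A and −0.98 in D. Aif1, a calcium-binding protein of the same cells, lay at −0.81 in A, −3.58 in B, −3.40 in C and −1.19 in D. Tmem119 was well above background on 15 of 15 arrays of D, 0 of A, 2 of B and 4 of C. Cx3cr1, the fractalkine receptor, was highest in B (4.45, 5.59, 4.92 and 3.83), so these markers did not share 1 order.

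Astrocyte genes passed the test of a series effect in 6 of 6 cases. Of all probes tested 75.4% did so, the share to set beside each count in this paragraph. Gfap, the intermediate filament, lay at 2.69 in A, 3.98 in B, 3.58 in C and 5.68 in D. Of 8 neuronal genes 5 passed, among them Gad1, the enzyme of GABA synthesis (5.95, 5.6, 5.59 and 7.0), and Snap25, a synaptic protein (6.51, 5.84, 5.83 and 6.73). Of 6 endothelial genes 3 passed, and Cdh5, which marks the vessel lining, did not (adjusted p = 0.423).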
